A study of Mus musculus with 8 samples.

Results

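The 47 genes described here encode the machinery that copies DNA and the proteins that time S phase. They were listed by name, and each was read from the probe set that the array's annotation assigns to that gene alone, or from the brightest such probe set where a gene had several. All 47 were found among the 19938 genes with such a probe set, and all 47 passed the limit on mean level that left 14953 genes for testing. By role, 14 load and start the replicative helicase, 13 are polymerase subunits or work at the fork, 6 supply nucleotides or keep uracil out of DNA, 4 handle chromatin and its methylation behind the fork, 5 control entry into S phase and 5 act in the S phase checkpoint or in repair.

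RNA came from splenocytes of 8 mice, all labelled as C57/B6 in strain background, and each mouse was measured on its own Affymetrix Mouse Gene 1.0 ST array. WT mice (n = 2) were wild type, Sle1.3 mice (n = 3) are labelled lupus mice, and Sle1.3/E2-2het mice (n = 3) are Sle1.3 mice that are also haplodeficient for E2-2, the transcription factor encoded by Tcf4 and needed by plasmacytoid dendritic cells. The labels give neither age nor the cells in which E2-2 was lowered, and E2-2 is also made outside plasmacytoid dendritic cells, B cells among them. Values are log2 of the deposited intensity, a scale on which 1 unit is a doubling.

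Both arrays numbered 3 stood apart: their lowest linear intensities were 10.9 (Sle1.3) and 11.2 (Sle1.3/E2-2het), against 4.57 to 5.11 on the other 6, and they are called the second array set. Xist, the X inactivation transcript, was 10.77, 10.68 and 11.90 in the Sle1.3 mice, 4.11 and 3.75 in WT and 3.79, 4.29 and 11.82 in Sle1.3/E2-2het. The label of Sle1.3 replicate 3 says male, against its array. By Xist, Sle1.3 versus WT was also females against males, while Sle1.3/E2-2het versus Sle1.3 was males against females in the first set and female against female in the second. Tcf4 was 9.02 and 8.80 in WT, 8.67, 8.63 and 9.06 in Sle1.3 and 8.18, 8.13 and 9.25 in Sle1.3/E2-2het, so Sle1.3/E2-2het replicate 3 was the highest of all 8 mice. In limma, Tcf4 fell in Sle1.3/E2-2het versus WT by 0.64 (SE 0.17, adjusted p = 0.0163), and by 0.76 (SE 0.15, adjusted p = 0.00551) in the first set alone, while Sle1.3 differed from WT by -0.37 (SE 0.17, adjusted p = 0.139). Sle1.3/E2-2het differed from Sle1.3 in Tcf4 by -0.27 (SE 0.15, adjusted p = 0.575), and by -0.50 (SE 0.15, adjusted p = 0.263) in the first set alone. The B cell receptor gene Cd79a (11.20 to 12.34) and the T cell receptor gene Cd3e (8.85 to 10.06) were read on every array, and in a mixed tissue such as spleen fewer cells of a type and less RNA per cell cannot be told apart.

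Before S phase, the origin recognition complex, Cdc6 and Cdt1 load the hexamer of Mcm2 to Mcm7 onto DNA. Cdc45 and the GINS complex then turn it into an active helicase, and polymerases alpha, delta and epsilon, the clamp Pcna and its loaders copy the strands. Cyclin E and the E2F factors switch on most of these genes as a cell commits to S phase, and in a spleen the dividing cells include germinal centre B cells, plasmablasts, and precursors of red cells and granulocytes.

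E2F factors bind short words of the kind TTTCGCGC in promoters, so the RefSeq promoter windows (build GRCm38.p6, from 250 bases before to 50 after each gene's start) were searched for TTTCCCGC, TTTCGCGC, TTTGCCGC and TTTGGCGC on both strands. Such a word was present for 17 of the 40 members with a window (42.5%), against 704 of all 27025 genes with windows of the same length (2.6%). A window was not given for Mcm4, Gins1, Gins2, Pole, Prim2, Ccne2 and Exo1. The stretches below are shown because they carry the word in 2 subunits of the helicase and in 3 members that were higher in Sle1.3 mice. Each is written 5′ to 3′ on the gene's own strand with the word in capitals.
Mcm5, chr8:75109330-75109389, plus strand: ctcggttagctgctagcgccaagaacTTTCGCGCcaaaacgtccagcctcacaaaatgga
Mcm6, chr1:128359782-128359841, minus strand: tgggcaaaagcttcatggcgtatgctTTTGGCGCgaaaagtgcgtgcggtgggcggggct
Cdc6, chr11:98907987-98908046, plus strand: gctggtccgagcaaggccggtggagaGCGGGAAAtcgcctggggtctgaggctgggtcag
Pola1, chrX:93632260-93632319, minus strand: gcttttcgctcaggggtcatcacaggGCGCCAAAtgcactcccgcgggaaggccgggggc
Uhrf1, chr17:56304102-56304161, plus strand: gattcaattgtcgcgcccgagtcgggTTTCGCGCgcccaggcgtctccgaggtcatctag
The words of Cdc6 and Pola1 read on the opposite strand. In Mcm5 and Mcm6 an opposite-strand word overlaps the capitals, and Mcm6 holds a further TTTGGCGC nearer its start. Among the 17 members that were higher in Sle1.3 mice, 5 of the 15 with a window held an E2F word (33.3%), against 12 of the other 25 (48%). A match is a description of these letters and no measure of binding.

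**Figure D1:**
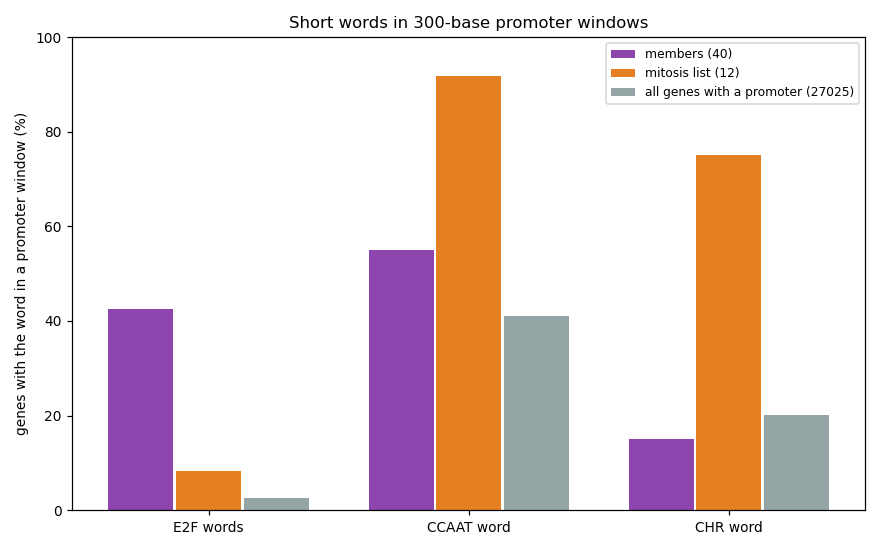
Share of genes (%) whose RefSeq promoter window of 300 bases holds an E2F word, the CCAAT word or the CHR word, for the 40 members with a window, the 12 genes of the mitosis list with a window and all 27025 genes with a window. E2F words were in 42.5% of members, 8.33% of mitosis genes and 2.6% of all genes, and CHR words in 15%, 75% and 20.2%.

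In Sle1.3 spleens compared with WT, which sets the lupus-prone mice against normal ones, most replication genes read higher. Of 47 members 40 (85.1%) had a positive difference, against 44.0% of all 14953 genes. The median was 0.38 against -0.06 over all genes. At an adjusted p of 0.05 in limma, 17 members rose (36.2%) and 1 fell (2.13%), where 7.46% of all genes tested rose and 16.5% fell. Unadjusted p under 0.05 was reached by 26 members upward and 2 downward, and by 1885 and 3801 of the 14953 genes. The rises ranged from Clspn at 0.46 to Rrm2 at 1.35, and the fall was Cdt1. In 32 members (68.1%) every Sle1.3 mouse lay above both WT mice, a state that held for 21.5% of all genes, and in 2 members, Cdt1 and Pold1, every Sle1.3 mouse lay below, which held for 24.4%. Each count rests on few mice: without WT replicate 2 it was 6 higher and 0 lower, without Sle1.3 replicate 1 it was 6 higher, without WT replicate 1 it was 7 higher, and without either array numbered 3, which is the first set alone, it was 9 higher. With the array set left out of the fit 4 members were higher and 0 lower, and with the sex shown by the arrays added to the set, 2 were higher (Rrm2 and Tyms) and 0 lower. Calls over all genes, 1115 higher and 2470 lower, moved as well. They were 393 and 714 without WT replicate 2, 547 and 1263 without Sle1.3 replicate 1, 1144 and 2072 without WT replicate 1, 772 and 1595 in the first set alone, 398 and 481 without the set in the fit, and 100 and 356 with the set and sex. With the replicate number as a block 19 were higher and 1 lower, against 9.19% and 20.3% of all genes, and the 2 further rises were E2f8 and Mcm2.

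**Figure D2:**
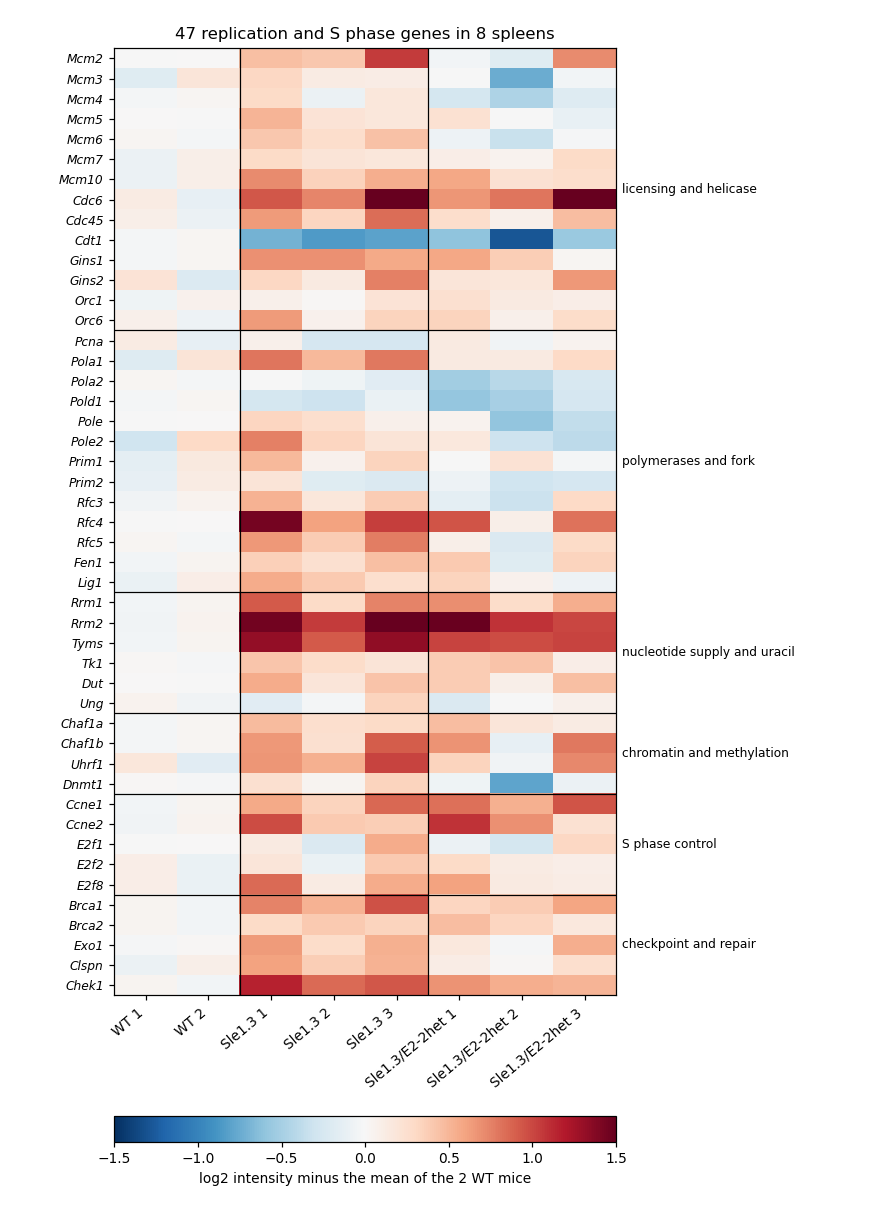
Each row is a member, grouped by role, and each column a mouse; colour gives log2 intensity minus the mean of the 2 WT mice, and colours end at 1.5 in either direction. Most rows are red in the 3 Sle1.3 mice and paler in the 3 Sle1.3/E2-2het mice, while Cdt1 is blue in all 6.

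The mice of a genotype differed among themselves in the level of the list. Relative to the WT mean, the median over the 47 members was 0.53, 0.25 and 0.42 in Sle1.3 replicates 1, 2 and 3, and 43, 38 and 42 members lay above that mean. In Sle1.3/E2-2het replicates 1, 2 and 3 the median was 0.24, 0.07 and 0.25, and 34, 26 and 34 members lay above. Replicate 2 was lowest in both genotypes, and all 6 medians lay above the 2 WT values of -0.02 and 0.02. Over all genes tested the same medians were -0.06, -0.06 and 0.19 in Sle1.3 and -0.09, -0.10 and 0.17 in Sle1.3/E2-2het, with both positive values on the second array set.

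The nucleotide supply genes held the members with the largest differences. Rrm2, the regulated subunit of ribonucleotide reductase, which makes the deoxyribonucleotides, read 7.01 and 7.12 in WT, 8.51, 8.11 and 8.63 in Sle1.3 and 8.55, 8.15 and 8.07 in Sle1.3/E2-2het mice. All 6 mice of the Sle1.3 genotypes lay above both WT mice. The rise was 1.35 (SE 0.20, adjusted p = 0.00130) in Sle1.3 and 1.18 (SE 0.20, adjusted p = 0.00196) in Sle1.3/E2-2het, or 2.54-fold and 2.27-fold. Tyms, thymidylate synthase, read 6.45 and 6.54 in WT, 7.81, 7.41 and 7.82 in Sle1.3 and 7.50, 7.47 and 7.50 in Sle1.3/E2-2het. It rose by 1.15 (SE 0.16, adjusted p = 0.000995) and 0.96 (SE 0.16, adjusted p = 0.00177) in the same order, again with no overlap with WT. These 2 genes kept their calls in both comparisons with WT under each of the 20 alternatives run. Rrm1, the large reductase subunit, read 8.38 and 8.46 in WT, 9.34, 8.70 and 9.16 in Sle1.3 and 9.11, 8.70 and 8.96 in Sle1.3/E2-2het. It rose in Sle1.3 (0.62, SE 0.20, adjusted p = 0.0415), and in Sle1.3/E2-2het its difference was 0.47 (SE 0.20, adjusted p = 0.0824), with adjusted p = 0.0360 under the replicate block. Tk1, the thymidine kinase that salvages thymidine, rose in Sle1.3/E2-2het (0.38, SE 0.13, adjusted p = 0.0472) and differed by 0.37 (SE 0.13, adjusted p = 0.0614) in Sle1.3. A further probe set of Tk1 gave 0.32 in Sle1.3 versus WT within the first set, beside 0.35 for the one used. Dut, which destroys dUTP, and Ung, which cuts uracil out of DNA, passed in neither comparison (Dut 0.34 and 0.26, Ung -0.06 and -0.15). In this group 3 of 6 rose in Sle1.3 (7.46% of all genes) and 3 of 6 in Sle1.3/E2-2het (10.7% of all genes), and none fell in either comparison (16.5% and 23.4% of all genes).

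**Figure D3:**
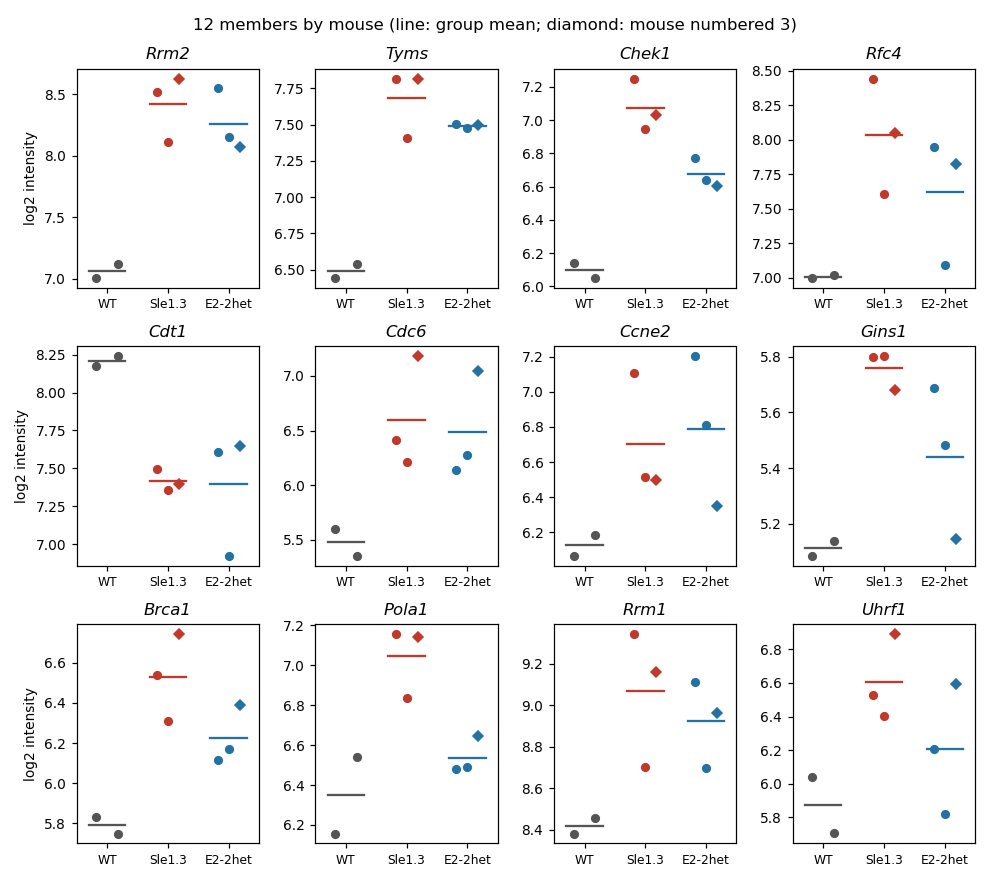
Log2 intensity of 12 members by mouse in WT (2 mice), Sle1.3 (3 mice) and Sle1.3/E2-2het (3 mice, marked E2-2het); lines are group means, diamonds are the mice numbered 3, and each panel has its own axis, which does not start at 0. Rrm2 and Tyms are above WT in all 6 other mice, Cdt1 is below WT in all 6, and Pola1 in Sle1.3/E2-2het lies below every Sle1.3 mouse.

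Among the genes that load and start the helicase, the loader Cdc6 rose and its partner Cdt1 fell in both Sle1.3 genotypes. Cdc6 read 5.60 and 5.35 in WT, 6.41, 6.21 and 7.18 in Sle1.3 and 6.14, 6.28 and 7.05 in Sle1.3/E2-2het, with both mice numbered 3 the highest. It rose by 0.84 (SE 0.14, adjusted p = 0.00279) in Sle1.3 and 0.73 (SE 0.14, adjusted p = 0.00451) in Sle1.3/E2-2het. Cdt1 read 8.18 and 8.24 in WT, 7.50, 7.36 and 7.40 in Sle1.3 and 7.61, 6.92 and 7.65 in Sle1.3/E2-2het, so both WT mice were above the other 6. Its differences were -0.85 (SE 0.20, adjusted p = 0.0112) and -0.87 (SE 0.20, adjusted p = 0.00800), a level 1.80-fold and 1.83-fold lower. In Sle1.3 versus WT 5 of 20 alternatives did not keep the fall of Cdt1, among them quantile normalization and the omission of WT replicate 2, at adjusted p = 0.0577 and 0.0907. Gins1, a subunit of GINS, read 5.09 and 5.14 in WT, 5.80, 5.80 and 5.68 in Sle1.3 and 5.69, 5.48 and 5.15 in Sle1.3/E2-2het, and the Sle1.3/E2-2het mouse numbered 3 was close to WT. It rose by 0.74 (SE 0.14, adjusted p = 0.00480) in Sle1.3 and 0.42 (SE 0.14, adjusted p = 0.0419) in Sle1.3/E2-2het. The helicase factors Cdc45 (0.49, SE 0.15, adjusted p = 0.0352) and Mcm10 (0.55, SE 0.17, adjusted p = 0.0338) rose in Sle1.3 as well, and in Sle1.3/E2-2het they differed by 0.16 and 0.38 without passing. Gins2, Orc1 and Orc6 passed in neither comparison, with differences in Sle1.3 of 0.23, 0.09 and 0.33.

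None of the 6 subunits of the helicase ring passed against WT in either genotype without the replicate block, although all 6 differences in Sle1.3 were positive. The median difference of Mcm2 to Mcm7 was 0.26 in Sle1.3 and -0.13 in Sle1.3/E2-2het. Mcm2 read 7.33 and 7.35 in WT, 7.79, 7.74 and 8.38 in Sle1.3 and 7.30, 7.16 and 8.05 in Sle1.3/E2-2het, where the mice numbered 3 were the highest of both genotypes. Its difference in Sle1.3 was 0.39 (SE 0.14, adjusted p = 0.0538), with a 95% interval of 0.10 to 0.69 and adjusted p = 0.0443 under the replicate block. Mcm5 and Mcm6 differed by 0.36 and 0.32 in Sle1.3, with intervals of 0.04 to 0.69 and 0.01 to 0.63. Mcm7 differed by 0.19, Mcm3 by 0.15 and Mcm4 by 0.08. A p that misses the threshold does not show that a ring subunit was the same in both genotypes.

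Of the 13 polymerase and fork genes 4 rose in Sle1.3 and none fell, while in Sle1.3/E2-2het none rose and 2 fell. Over all genes 7.46% rose and 16.5% fell in Sle1.3, and 10.7% rose and 23.4% fell in Sle1.3/E2-2het, so the falls in the group were not more frequent than among all genes. Rfc4, a subunit of the clamp loader, read 7.0 and 7.02 in WT, 8.44, 7.61 and 8.05 in Sle1.3 and 7.95, 7.10 and 7.82 in Sle1.3/E2-2het, and its WT values were close together while the other groups spread widely. It rose in Sle1.3 (0.97, SE 0.27, adjusted p = 0.0238) and differed by 0.56 (SE 0.27, adjusted p = 0.126) in Sle1.3/E2-2het, with adjusted p = 0.0342 under the replicate block. Pola1, the catalytic subunit of polymerase alpha, which lies on chromosome X, read 6.16 and 6.54 in WT, 7.15, 6.84 and 7.14 in Sle1.3 and 6.48, 6.49 and 6.65 in Sle1.3/E2-2het. It rose in Sle1.3 (0.64, SE 0.16, adjusted p = 0.0151), where the Sle1.3 mice were female and the WT mice male by Xist. With the sex shown by the arrays added to the fit, a term that rests on 1 pair of mice, its difference was 0.63 (adjusted p = 0.232). Rfc5 (0.50, SE 0.15, adjusted p = 0.0348) and the ligase Lig1 that seals Okazaki fragments (0.48, SE 0.15, adjusted p = 0.0331) rose in Sle1.3 as well.

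Pold1, the catalytic subunit of polymerase delta, read 7.08 and 7.15 in WT, 6.85, 6.80 and 7.02 in Sle1.3 and 6.53, 6.62 and 6.86 in Sle1.3/E2-2het. Both WT mice lay above the other 6, and it fell in Sle1.3/E2-2het (-0.52, SE 0.13, adjusted p = 0.0116), with -0.30 (SE 0.13, adjusted p = 0.111) in Sle1.3. Pola2, the regulatory subunit of polymerase alpha, read 7.53 and 7.47 in WT, 7.50, 7.44 and 7.33 in Sle1.3 and 6.98, 7.09 and 7.26 in Sle1.3/E2-2het. It fell in Sle1.3/E2-2het (-0.40, SE 0.14, adjusted p = 0.0471), a call that 10 of 20 alternatives did not keep. Pcna, the sliding clamp, read 11.30 and 11.06 in WT, 11.26, 10.93 and 10.93 in Sle1.3 and 11.31, 11.13 and 11.23 in Sle1.3/E2-2het, with every group overlapping the others. Its differences were -0.12 (SE 0.16, adjusted p = 0.619) and 0.07 (SE 0.16, adjusted p = 0.753), and its other probe set gave -0.09 in Sle1.3 versus WT in the first set, beside -0.09 for the one used. Prim2, a primase subunit, had a difference of -0.02 in Sle1.3. The remaining members of the group, Pole, Pole2, Prim1, Rfc3 and Fen1, had differences in Sle1.3 from 0.27 (Rfc3) to 0.53 (Pole2), and none passed.

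Both E cyclins, which with Cdk2 drive entry into S phase, rose in both comparisons with WT. Ccne2 read 6.07 and 6.18 in WT, 7.11, 6.51 and 6.50 in Sle1.3 and 7.20, 6.81 and 6.35 in Sle1.3/E2-2het, and replicate 1 was the highest in both genotypes. It rose by 0.74 (SE 0.20, adjusted p = 0.0199) and 0.82 (SE 0.20, adjusted p = 0.00999). Ccne1 read 6.72 and 6.80 in WT, 7.33, 7.09 and 7.63 in Sle1.3 and 7.59, 7.29 and 7.70 in Sle1.3/E2-2het, above WT in all 6 mice. It rose by 0.47 (SE 0.15, adjusted p = 0.0409) and 0.65 (SE 0.15, adjusted p = 0.00844). The E2F factors in the list did not pass: the activators E2f1 and E2f2 differed by -0.02 and 0.12 in Sle1.3, and the repressor E2f8 by 0.54 (SE 0.22, adjusted p = 0.0962), with adjusted p = 0.0206 under the replicate block.

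In the checkpoint and repair group 3 of 5 rose and none fell in Sle1.3, where 7.46% of all genes rose and 16.5% fell. Chek1, the kinase that restrains the cell cycle when forks stall, read 6.14 and 6.05 in WT, 7.25, 6.95 and 7.03 in Sle1.3 and 6.77, 6.64 and 6.60 in Sle1.3/E2-2het, so the 3 groups did not overlap. It rose by 1.01 (SE 0.15, adjusted p = 0.00128) in Sle1.3, or 2.01-fold, and by 0.60 (SE 0.15, adjusted p = 0.00971) in Sle1.3/E2-2het, or 1.52-fold. Brca1, which acts in recombination repair, read 5.83 and 5.75 in WT, 6.54, 6.31 and 6.74 in Sle1.3 and 6.12, 6.17 and 6.39 in Sle1.3/E2-2het. It rose in Sle1.3 (0.65, SE 0.14, adjusted p = 0.00729) and differed by 0.34 (SE 0.14, adjusted p = 0.0734) in Sle1.3/E2-2het. Clspn, the adaptor through which Chek1 is activated, rose in Sle1.3 (0.46, SE 0.14, adjusted p = 0.0364), while Brca2 and the exonuclease Exo1 differed by 0.38 and 0.39 without passing. Of the chromatin genes, Uhrf1, which brings the methyltransferase to new DNA, read 6.04 and 5.70 in WT, 6.53, 6.40 and 6.89 in Sle1.3 and 6.20, 5.82 and 6.59 in Sle1.3/E2-2het. It rose in Sle1.3 (0.57, SE 0.17, adjusted p = 0.0289), while Dnmt1, that methyltransferase, differed by 0.12 and the histone chaperone subunits Chaf1a and Chaf1b by 0.38 and 0.43.

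Sle1.3/E2-2het spleens compared with WT gave fewer calls on the list, with 8 members higher and 3 lower. Those higher were Rrm2, Tyms, Ccne2, Cdc6, Ccne1, Chek1, Gins1 and Tk1, and those lower were Cdt1, Pold1 and Pola2. Of all genes tested 10.7% rose and 23.4% fell. At an unadjusted p under 0.05 the members numbered 12 and 4, and all genes 2338 and 4644 of 14953. A positive difference was found in 32 of 47 members (68.1%), against 43.0% of all genes, and the median was 0.14 against -0.09 over all genes. In 18 members every Sle1.3/E2-2het mouse lay above both WT mice, against 25.9% of all genes, and in 5 members (Mcm4, Cdt1, Pola2, Pold1 and Dnmt1) every mouse lay below, against 23.2%. The members' shares were thus 17.0% and 6.38% for the calls and 38.3% and 10.6% without overlap. The comparison shares its WT mice with the one before, so their likeness is no separate evidence. By Xist it set males against males in the first array set, with the female replicate 3 in the second. Sle1.3 versus WT was females against males throughout. The counts of the 2 comparisons thus differ in sex as well as in genotype, and these cannot be told apart. Without WT replicate 2 the counts were 4 higher and 0 lower, with the array set left out of the fit 3 and 0, and after quantile normalization 8 and 1. Over all genes 1599 higher and 3493 lower became 532 and 1102, 517 and 559, and 1047 and 1745 in the same order. With the replicate block 10 were higher and 3 lower, against 12.8% and 27.4% of all genes, and the 2 further rises were Rfc4 and Rrm1.

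The 15 members with a negative difference in Sle1.3/E2-2het versus WT included 4 polymerase subunits and 4 of the ring subunits. Besides the 3 that fell they were Mcm2 (-0.08), Mcm3 (-0.30), Mcm4 (-0.35), Mcm6 (-0.19), Pole (-0.25), Pole2 (-0.07), Prim2 (-0.16), Rfc3 (-0.15), Rfc5 (-0.05), E2f1 (-0.20), Dnmt1 (-0.40) and Ung (-0.15), none of which passed. Mcm4 read 7.87 and 7.91 in WT and 7.63, 7.42 and 7.70 in Sle1.3/E2-2het, below WT in all 3 mice. Dnmt1 read 7.86 and 7.83 in WT and 7.78, 7.06 and 7.76 in Sle1.3/E2-2het, where replicate 2 was far below the rest.

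**Figure D4:**
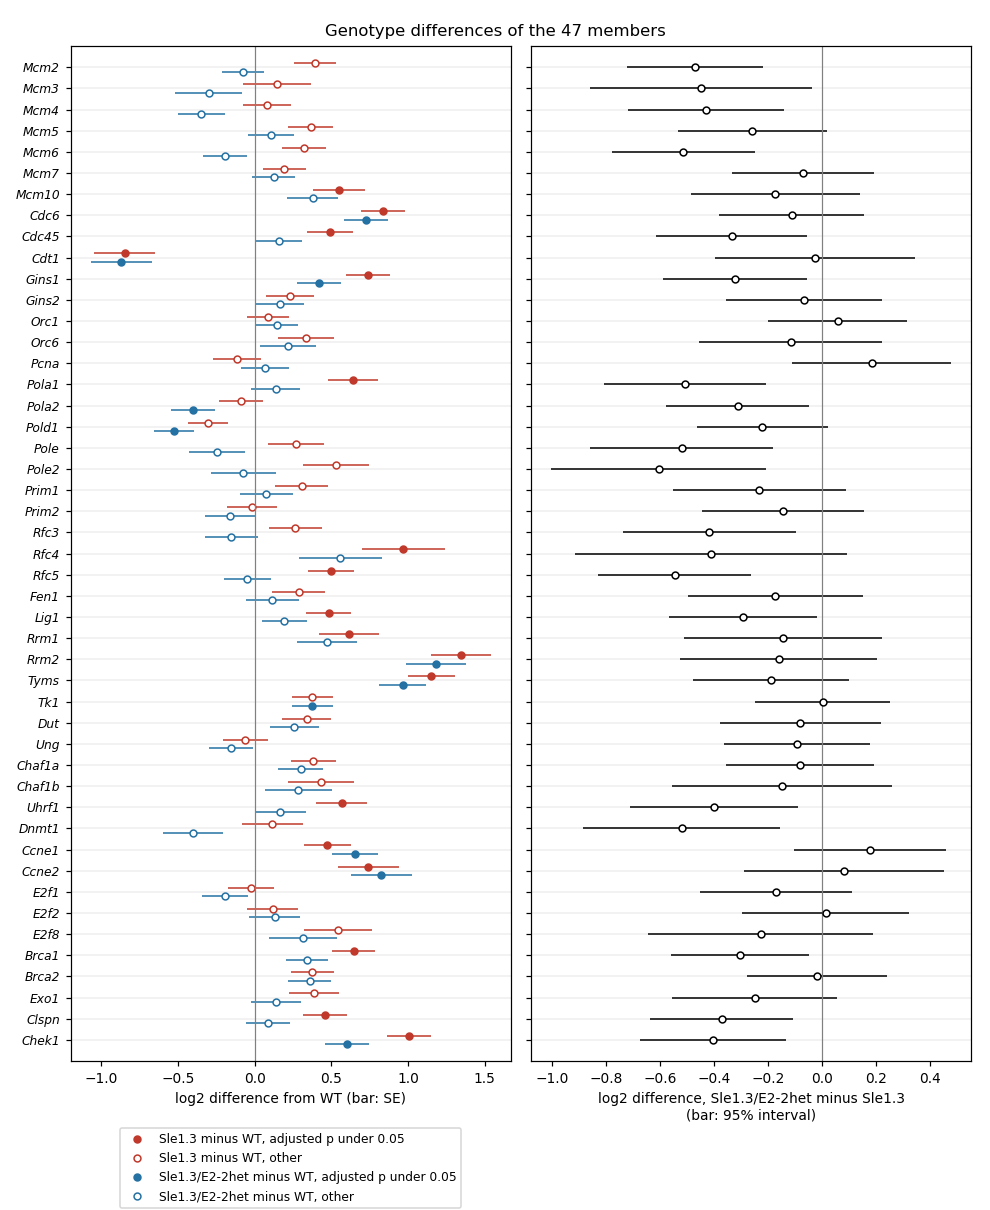
Left, log2 differences from WT of the 47 members with their standard errors, in Sle1.3 (red) and Sle1.3/E2-2het (blue), filled where the adjusted p was under 0.05. Right, the difference of Sle1.3/E2-2het from Sle1.3 with its 95% interval. There 41 of 47 points lie below 0, against 7399 of all 14953 genes, and none passed after adjustment.

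Sle1.3/E2-2het versus Sle1.3, which compares mice labelled with and without the loss of 1 E2-2 copy, gave no member past the threshold. By Xist it also set males against females in the first array set, where genotype and sex cannot be told apart. Tcf4 itself differed by -0.27 (limma, adjusted p = 0.575), and among the mice numbered 3 it was higher in Sle1.3/E2-2het (9.25 against 9.06). The counts were 0 higher and 0 lower in limma, where 0.154% of all genes tested rose and 0.461% fell. The differences were nevertheless mostly negative: 41 of 47 were below 0, against 7399 of all 14953 genes, and the median was -0.22 against 0.00. In limma 18 members reached an unadjusted p under 0.05 downward and 0 upward. Over all 14953 genes 1034 did so downward and 495 upward. In 11 members (23.4%) every Sle1.3/E2-2het mouse lay below every Sle1.3 mouse, against 4.33% of all genes, and in 0 members every mouse lay above, against 3.04%. These were Mcm3, Mcm4, Mcm6, Pola1, Pola2, Pole, Pole2, Rfc5, Dnmt1, Clspn and Chek1. In all 3 same-numbered pairs the Sle1.3/E2-2het mouse was lower for 26 members (55.3%), against 19.3% of all genes, and higher for 2 (Pcna and Ccne1), against 16.2%.

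With the replicate number as a block, 2 members fell and 0 rose in Sle1.3/E2-2het versus Sle1.3, against 1.20% and 0.548% of all genes. They were Mcm6 (adjusted p = 0.0428) and Rfc5 (adjusted p = 0.0352), which without the block were the members with the smallest p. Mcm6 read 8.35, 8.20 and 8.38 in Sle1.3 and 7.87, 7.60 and 7.92 in Sle1.3/E2-2het, with pair differences of -0.48, -0.60 and -0.46. Its difference was -0.51 (SE 0.12, adjusted p = 0.0940), with a 95% interval of -0.78 to -0.25. Rfc5 read 8.82, 8.55 and 8.94 in Sle1.3 and 8.26, 7.95 and 8.46 in Sle1.3/E2-2het, lower in every pair by 0.56, 0.60 and 0.48. Its difference was -0.55 (SE 0.13, adjusted p = 0.0953), with an interval of -0.83 to -0.26.

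Mcm2 and Pola1 came next by p, with differences of -0.47 (SE 0.12, adjusted p = 0.104) and -0.51 (SE 0.14, adjusted p = 0.147) and intervals of -0.72 to -0.22 and -0.81 to -0.21. The pair differences of Mcm2 were -0.49, -0.58 and -0.34 and those of Pola1 -0.67, -0.35 and -0.49, so neither gene rose in any pair. By role, the median difference was -0.44 for Mcm2 to Mcm7, -0.31 for the polymerase and fork genes, -0.30 for checkpoint and repair, -0.27 for chromatin and methylation, -0.21 for all licensing and helicase genes, -0.12 for nucleotide supply and 0.01 for S phase control. Of the 4 members with the largest rises in Sle1.3 versus WT, Rrm2 differed by -0.16 (interval -0.52 to 0.20), Tyms by -0.19 (-0.48 to 0.10), Rfc4 by -0.41 (-0.91 to 0.09) and Chek1 by -0.40 (-0.67 to -0.13). These 4 were picked as high in the same Sle1.3 mice, which by itself favours a negative difference here. Ccne1 (0.18, interval -0.10 to 0.46) and Pcna (0.18, interval -0.11 to 0.48) had the most positive differences.

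The change with E2-2 was also asked of each array set. A test of whether it differed between the second and the first set passed for 0 of 47 members after adjustment and for 0 at an unadjusted p under 0.05, while 5 of 14953 genes passed after adjustment and 367 unadjusted. The second set held 1 mouse of each genotype, so this test rests on 1 pair, and it is the pair in which both mice were female by Xist. Chek1 differed by -0.43 in that pair and by -0.48 and -0.30 in the pairs numbered 1 and 2.

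Of other genes of DNA replication outside the 47, 8 of 37 tested rose in Sle1.3 versus WT and 2 fell (7.46% and 16.5% of all genes). The largest were Pclaf, a Pcna-binding protein (1.35, SE 0.19, adjusted p = 0.00107), the histone chaperone Asf1b (0.93, SE 0.27, adjusted p = 0.0277), the fork protein Donson, which fell (-0.90, SE 0.21, adjusted p = 0.0111), and the chromatin remodeller Hells (0.75, SE 0.15, adjusted p = 0.00534). Hells read 5.80 and 6.13 in WT, 6.82, 6.64 and 6.68 in Sle1.3 and 5.86, 5.87 and 5.91 in Sle1.3/E2-2het, back in the range of WT. It was the only gene of that list past the threshold when Sle1.3/E2-2het was set against Sle1.3 (-0.84, SE 0.13, adjusted p = 0.0144), where 0.461% of all genes fell. In Sle1.3/E2-2het versus WT 1 of the 37 rose (Pclaf, 0.66, SE 0.19, adjusted p = 0.0192) and 4 fell, led by Donson (-0.85, SE 0.21, adjusted p = 0.0113) and Mcmbp (-0.71, SE 0.14, adjusted p = 0.00389). Over all genes 10.7% rose and 23.4% fell there. The median of the list was 0.04 in Sle1.3 versus WT, -0.13 in Sle1.3/E2-2het versus WT and -0.16 between the Sle1.3 genotypes. With the replicate block 3 rose and 5 fell in Sle1.3/E2-2het versus WT (12.8% and 27.4% of all genes), and 3 fell between the Sle1.3 genotypes (1.20%).

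Among 25 other genes of S phase control, 1 rose and 2 fell in Sle1.3, where 7.46% of all genes rose and 16.5% fell. Ccna2, the cyclin of S phase and G2, rose (1.60, SE 0.24, adjusted p = 0.00138), and the E2F repressors E2f5 (-0.63, SE 0.19, adjusted p = 0.0299) and E2f4 (-0.49, SE 0.15, adjusted p = 0.0364) fell. In Sle1.3/E2-2het 3 of the 25 rose and 4 fell (10.7% and 23.4% of all genes). The rises included Ccna2 (1.12, SE 0.24, adjusted p = 0.00582) and Tfdp2, an E2F partner (0.72, SE 0.18, adjusted p = 0.0125). Of 17 other nucleotide supply genes none rose in either genotype, 1 fell in Sle1.3 (Gart of purine synthesis, -0.46, SE 0.14, adjusted p = 0.0306) and 4 fell in Sle1.3/E2-2het, led by the folate enzyme Shmt2 (-1.09, SE 0.23, adjusted p = 0.00547), a share near the 23.4% of all genes that fell there. Of 21 fork repair genes 3 rose and 2 fell in Sle1.3 (7.46% and 16.5% of all genes). Among them were Fancd2 of the Fanconi pathway (0.81, SE 0.14, adjusted p = 0.00250) and the mismatch repair genes Pms2 (-0.57, SE 0.14, adjusted p = 0.0124) and Msh6 (-0.55, SE 0.14, adjusted p = 0.0167). In Sle1.3/E2-2het 3 rose and 4 fell (10.7% and 23.4% of all genes). None of these 3 lists had a gene past the threshold between the Sle1.3 genotypes. The replicate block gave 2 higher and 2 lower S phase control genes in Sle1.3 versus WT and 1 of each between the Sle1.3 genotypes, while 2 nucleotide supply genes fell in Sle1.3 and 6 in Sle1.3/E2-2het. Over all genes the block gave 9.19% higher and 20.3% lower in Sle1.3, and 27.4% lower in Sle1.3/E2-2het. Between the Sle1.3 genotypes it gave 0.548% higher and 1.20% lower.

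Genes of mitosis, the step that follows S phase and G2, rose nearly throughout in Sle1.3. Of 12 tested, 11 rose and none fell, against 7.46% and 16.5% of all genes. The median was 1.13 beside 0.38 for the 47 members, and the difference between the lists was not tested. Bub1, a spindle checkpoint kinase, rose by 1.65 (SE 0.24, adjusted p = 0.00128), Mki67, a marker of dividing cells, by 1.63 (SE 0.23, adjusted p = 0.00115), Cdk1, the mitotic kinase, by 1.48 (SE 0.29, adjusted p = 0.00502) and the spindle motor Kif11 by 1.44 (SE 0.24, adjusted p = 0.00219). In Sle1.3/E2-2het 6 of 12 rose and none fell (10.7% and 23.4% of all genes), with a median of 0.51. Between the Sle1.3 genotypes 1 fell, Top2a, the topoisomerase that untangles chromosomes (-0.86, SE 0.15, adjusted p = 0.0288), where 0.461% of all genes fell. The median was -0.56, and with the replicate block 5 fell (1.20% of all genes). The promoter windows of the 2 lists differed as well: the CHR word TTTGAA, read on both strands, was in 9 of 12 windowed mitosis genes (75%) and 6 of 40 members (15%), against 20.2% of all genes, while an E2F word was in 1 of 12 (8.33%) mitosis genes. CCAAT, on either strand, was in 11 of 12 (91.7%) mitosis genes, 22 of 40 (55%) members and 41.1% of all genes.

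**Figure D5:**
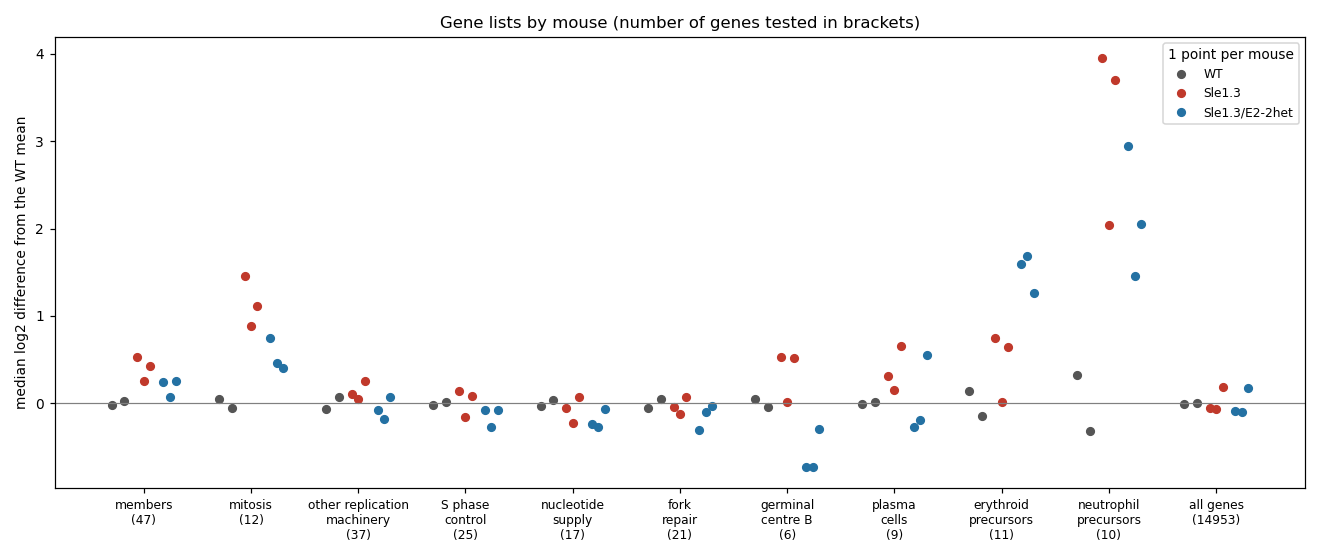
Median log2 difference from the WT mean over the genes of a list, 1 point per mouse, for the members, 5 lists of related genes, 4 lists of cell markers and all genes tested. The members lie between 0.25 and 0.53 in Sle1.3 and between 0.07 and 0.25 in Sle1.3/E2-2het mice, the mitosis genes higher in both, and the germinal centre list lies below 0 in all 3 Sle1.3/E2-2het mice.

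Markers of cell types that divide in the spleen moved beside the replication genes, and their part in the result was not tested. Neutrophil precursor markers rose in 9 of 10 genes in Sle1.3 and 8 of 10 in Sle1.3/E2-2het versus WT (7.46% and 10.7% of all genes). Their medians were 3.24 and 2.00, and none passed between the Sle1.3 genotypes, where 3 fell with the replicate block. Their summed linear intensity was 721 to 1518 in WT, 4513 to 15135 in Sle1.3 and 3860 to 12445 in Sle1.3/E2-2het mice. Elane, neutrophil elastase, read 6.75 and 5.98 in WT, 10.24, 8.75 and 10.42 in Sle1.3 and 9.38, 8.14 and 8.53 in Sle1.3/E2-2het. Replicate 2 was the lowest in both genotypes here, as it was for the median of the members. The same held for the medians of all genes tested and of the B cell, germinal centre B cell and red pulp macrophage markers. It did not hold for those of the T cell, plasma cell and erythroid precursor markers.

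Erythroid precursor markers rose in 2 of 11 genes in Sle1.3 and 9 of 11 in Sle1.3/E2-2het versus WT (7.46% and 10.7% of all genes). Between the Sle1.3 genotypes 3 of 11 rose (0.154% of all genes), where the 47 members gave 0. With the replicate block 5 rose in Sle1.3 and 7 between the Sle1.3 genotypes. Their summed intensity was 843 to 893 in WT, 823 to 1165 in Sle1.3 and 1796 to 3297 in Sle1.3/E2-2het mice. Slc4a1, the red cell anion exchanger, rose by 2.25 (SE 0.35, adjusted p = 0.0157) between the Sle1.3 genotypes and Alas2, the first enzyme of erythroid haem synthesis, by 2.34 (SE 0.41, adjusted p = 0.0293). Germinal centre B cell markers went the other way in Sle1.3/E2-2het mice, both against WT and against Sle1.3. In Sle1.3 versus WT the medians of both lists were positive (erythroid 0.56, germinal centre 0.27). Of 6 tested 2 rose in Sle1.3 versus WT (7.46% of all genes) and 4 fell in Sle1.3/E2-2het versus WT (23.4%). Between the Sle1.3 genotypes 3 fell (0.461%). Their summed intensity was 967 to 972 in WT, 1077 to 1648 in Sle1.3 and 625 to 748 in Sle1.3/E2-2het mice. Mybl1, a Myb family factor made in germinal centres, read 6.95 and 6.65 in WT, 8.36, 7.56 and 8.51 in Sle1.3 and 5.91, 5.67 and 6.79 in Sle1.3/E2-2het, and fell by 2.02 (SE 0.19, adjusted p = 0.00173) between the Sle1.3 genotypes. Gcsam, a germinal centre signalling protein, fell by 1.65 (SE 0.18, adjusted p = 0.00279).

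Plasma cell markers gave 1 higher and 1 lower of 9 in Sle1.3, 1 and 2 in Sle1.3/E2-2het, and 1 lower between the Sle1.3 genotypes (Mzb1, -0.90, SE 0.15, adjusted p = 0.0214; 2 with the replicate block), with summed intensities of 7094 to 7926 in WT, 8296 to 10373 in Sle1.3 and 7591 to 9872 in Sle1.3/E2-2het. The shares of all genes were 7.46% higher and 16.5% lower in Sle1.3, and 10.7% and 23.4% in Sle1.3/E2-2het. Between the Sle1.3 genotypes 0.461% fell, and 1.20% with the replicate block. Against WT the plasma cell counts were near these shares. Red pulp macrophage markers rose in 3 of 5 genes in Sle1.3 and 4 of 5 in Sle1.3/E2-2het. Their sums were 754 to 1133 in WT, 1404 to 2199 in Sle1.3 and 1486 to 2304 in Sle1.3/E2-2het. Between the Sle1.3 genotypes 1 of the 5 rose (0.154% of all genes), the adhesion molecule Vcam1 (1.09, SE 0.20, adjusted p = 0.0329). Of the 5 differences 3 were positive and 2 negative, with a median of 0.21. Of 4 B cell markers 1 fell in Sle1.3 and 2 in Sle1.3/E2-2het, with sums of 9726 to 12391, 9005 to 10600 and 7839 to 11429. Of 5 T cell markers none passed in Sle1.3 and 2 fell in Sle1.3/E2-2het, with sums of 2394 to 2719, 2049 to 2583 and 1592 to 2744. Between the Sle1.3 genotypes 1 T cell marker, Cd4, fell with the replicate block and none without it. No marker tested was listed at 0.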

How the data were processed

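The values deposited by the authors are linear intensities, 1 for each of 35556 probe sets on each array. Both RMA and Affymetrix Expression Console are named in the submitters' processing notes. Versions, the role of each tool and the annotation build are not given in the sources used here. The deposited intensities were taken to log2. A probe set was used where the array's annotation gives it 1 gene symbol (21789 probe sets, 19938 genes), and symbols were updated through Entrez identifiers to the RefSeq GRCm38.p6 table. Testing was limited to genes whose mean log2 value exceeded the 25th percentile (5.01). Promoter windows are RefSeq's.

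A single limma fit (limma 3.58.1, R 4.3.3, lmFit and eBayes, two-sided) to all 8 arrays held the genotype and the array set, with 4 residual degrees of freedom and Benjamini-Hochberg adjustment over the 14953 genes. The set with the lowest linear intensity above 8 is the second set; it holds no WT mouse. The script was tested on simulated data. Members and gene lists were chosen with earlier results of these data known. Each mouse is 1 array, so precision is limited by how few arrays there are; no detection call was used.

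Same-numbered mice of both Sle1.3 genotypes deviated together from their group means (correlations across genes of 0.573, 0.369 and 0.618). Mice with unlike numbers gave -0.536 to 0.119. The array set was not removed from these deviations, and the mice numbered 3 are the second set. The number was therefore also run as a replicate block, and the labels do not say what it marks. The genes singled out are the up to 12 past the threshold with the largest difference in Sle1.3 versus WT. To them were added the up to 6 in each other comparison (or the 4 with the smallest p) and members against the list's majority sign. From other lists up to 4 past the threshold were taken. Values for each mouse are printed for only part of these genes. The alternatives changed the covariate, the scaling, an offset, the filter, the probe set rule, the variance model and the arrays included.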

Additional observations from a re-analysis of the deposited data

How the results depend on the processing

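No call of a member reversed its direction in any of the 20 alternatives. Some members that did not pass changed sign, and the number with a positive difference in Sle1.3 versus WT, 40, ranged from 34, under the filter that tests fewer genes, to 42. The medians of the members moved by less than 0.11, 1 SD of the spread between mice of a genotype in the first set. That SD is not far below the median of 0.14 in Sle1.3/E2-2het versus WT, so it is a loose limit there. This median ranged from 0.06 after median centring to 0.22 after quantile normalization. Counts of members past the threshold did move. In Sle1.3 versus WT, 17 higher and 1 lower became 4 and 0 with genotype alone, 2 and 0 with labelled sex in place of the array set, 2 and 0 with the array set and the sex the arrays show, 9 higher in the first array set alone, 10 higher after median centring and 0 lower after quantile normalization. Calls over all genes moved too, from 1115 higher and 2470 lower to 79 and 120 with labelled sex. They were 961 and 2702 after median centring and 945 and 1300 after quantile normalization. The other counts over all genes are given above. In Sle1.3/E2-2het versus WT, 8 higher and 3 lower became 3 and 0 with genotype alone and 2 and 0 with labelled sex. After quantile normalization 1 was lower. Labelled sex moved the calls over all genes there from 1599 higher and 3493 lower to 256 and 236. The replicate block gave 2 lower in Sle1.3/E2-2het versus Sle1.3 and 19 and 10 higher in the other 2 comparisons, and beside the calls given in the report it changed no other call of a member. The causes were not tested.

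Leaving out each mouse in turn gave 6 to 19 higher and 0 to 1 lower in Sle1.3 versus WT, 4 to 8 higher and 0 to 3 lower in Sle1.3/E2-2het versus WT, and 0 of either in the third comparison, where 3 to 10 of the 47 differences were positive. Leaving out either mouse numbered 3 gives the first array set by construction, so the tallies of alternatives count that fit more than once. In Sle1.3/E2-2het versus WT the fit with the array set and the sex the arrays show gave the same values again. Of the rises in Sle1.3 versus WT, those of Rrm2 and Tyms were kept in 20 of 20 alternatives, Chek1 in 18, Brca1 and Cdc6 in 17, Gins1 in 16 of 19, Ccne1, Cdc45, Lig1, Mcm10, Rfc5 and Rrm1 in 10 of 20 and Clspn in 7 of 19, and that of Tk1 in Sle1.3/E2-2het versus WT in 6 of 20. Of the calls of named members, 114 in Sle1.3 versus WT and 51 in Sle1.3/E2-2het versus WT were lost under an alternative, against 244 and 168 kept. With 2 WT mice, members with small differences are near the limit of what the fit can call.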
